A study of Mus musculus with 6 samples.

Results

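The nuclear genes of the mitochondrial respiratory chain and ATP synthase were examined in group 2 innate lymphoid cells (ILC2s) of the mouse lung that had been exposed to TNFa or to its PBS vehicle. Members were the protein coding genes whose symbols start with Ndufa, Ndufb, Ndufc, Ndufs, Ndufv, Uqcr, Cox4, Cox5, Cox6, Cox7, Cox8 or Atp5, together with Sdha, Sdhb, Sdhc and Sdhd. This choice used names and the annotated gene type only, and it gave 88 of the 21825 genes in the count table, of which 14696 were protein coding. The lowest total of any gene in that table was 10.0 counts, so genes with fewer could not become members. The 88 comprised 75 structural subunits (36 of complex I, 4 of complex II, 8 of complex III, 11 of complex IV and 16 of complex V), 8 assembly factors of complex I named Ndufaf1 to Ndufaf8, 3 muscle, heart or testis isoforms of complex IV subunits, and 2 related genes, Cox7a2l and Atp5s. Ndufa4 was counted with complex IV, where its protein is known to reside despite its name.

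ILC2s are tissue lymphocytes without rearranged antigen receptors that secrete type 2 cytokines. All 6 libraries came from ILC2s sorted from the lungs of 6-week-old BALB/c animals after 3 intraperitoneal injections of 1 µg recombinant mouse IL-33, which drives ILC2s to expand. In 3 libraries (numbered 4 to 6) the cells had been held for 48 h in 40 ng/mL recombinant mouse TNFa, a cytokine that signals to NF-kB, with IL-2 and IL-7 at 10 ng/mL each. In the other 3 (numbered 1 to 3) they had been held for 48 h in the same IL-2 and IL-7 with PBS. No genetic alteration is given for the mice. Injected IL-33 and cultured IL-2 and IL-7 are common to both groups, so no library shows the chain in cells without them. PBS replicate 2 is labelled as a repeat, and it is not stated whether separate cultures or animals gave the libraries of a group, so a p-value here reflects only how much these libraries vary, which may be technical.

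The respiratory chain carries electrons in the inner mitochondrial membrane. Complex I takes them from NADH and complex II from succinate, ubiquinone passes them to complex III, cytochrome c passes them to complex IV, and complex IV reduces oxygen. Complexes I, III and IV pump protons, and complex V, the ATP synthase, uses the returning protons to make ATP. Complex II is encoded wholly in the nucleus, whereas the other complexes combine nuclear subunits with subunits encoded in mitochondrial DNA, so that their assembly draws on both genomes. Activated lymphocytes use the chain both for ATP and for the oxidised cofactors that biosynthesis requires.

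The libraries held 25089415, 27592246 and 32487004 counts for TNFa replicates 4, 5 and 6, and 29185442 to 30908757 counts with PBS. The ILC2 genes Il5, Gata3 and Il1rl1 were abundant in both groups (Il5 5442 ± 308 CPM with TNFa and 4520 ± 448 with PBS, Gata3 705 ± 52.1 and Il1rl1 425 ± 49.8 CPM with TNFa, against 978 ± 71.8 and 616 ± 64.9 CPM with PBS; CPM are counts scaled to library size by the trimmed mean of M values, given as mean ± SD, n = 3 each), while Thy1, another marker, was at 3.35 ± 1.04 CPM with TNFa and 2.76 ± 0.656 with PBS. Gata3, Il1rl1, Klrg1, Il17rb and Rora were lower in every TNFa library than in every PBS library (log2 fold changes -0.47, -0.54, -0.41, -0.58 and -0.11). Il5 and Areg were higher in every one. Of all tested genes 8.35% were separated as lower and 6.85% as higher. Of the 10 ILC2 markers, 7 had an unadjusted p under 0.05 and 0 had an adjusted p under 0.05 (edgeR), beside 8.31% and 0.102% of all tested genes. Summed markers of other cells, TNFa libraries against PBS libraries, were 75.5 to 83.0 against 86.7 to 95.1 CPM for 7 T cell genes. They were 13.8 to 16.5 against 20.2 to 20.6 for 4 B cell genes and 14.1 to 31.1 against 17.8 to 40.4 for 5 myeloid genes. For 5 structural genes they were 142 to 198 against 119 to 153, and for 5 mast cell genes 1199 to 1380 against 1159 to 1297. For 3 erythroid genes they were 1.38 to 2.72 against 1.74 to 3.68. Of the markers listed, 5 of 6 structural and 3 of 4 erythroid genes were in the count table. Within the structural genes Epcam stood at 14.2 ± 1.06 CPM with TNFa and 27.4 ± 1.59 with PBS (-0.95 ± 0.16, adjusted p = 0.088, or 0.049 without TNFa replicate 5), and Scgb1a1 had 81.0, 0.187 and 46.1 CPM with TNFa and 0.0341, 6.09 and 8.07 CPM with PBS. The part of these markers in the results was not tested. TNFa replicate 5 stood apart: it lay at 90.4 on the first principal component (35.6% of the variance), with the remaining 5 libraries at -22.6 to -14.5. The counts and medians of the gene groups are therefore given with and without it, as are the changes of several single genes.

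No respiratory chain gene passed the test for a difference between TNFa and PBS. All 88 were abundant enough to be tested, and 0 passed edgeR's quasi-likelihood test at an adjusted p under 0.05 (Benjamini-Hochberg over 15719 genes; lowest adjusted p 0.51). The background was small too: 16 of the 15719 genes passed (0.102%), 14 of them higher (0.0891%) and 2 lower (0.0127%) with TNFa. With DESeq2 218 genes passed (1.39%) and 0 of the 88. At an unadjusted p under 0.05 there were 2 of the 88 genes (2.27%), where 8.31% of all tested genes reached that level. In bulk RNA a change in the mix of cells and a change in RNA per cell cannot be told apart.

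The fitted changes of the structural subunits were small and their intervals were narrow. The median log2 fold change (TNFa over PBS) was 0.06 over the complex I subunits, -0.04 over complex II, 0.10 over complex III, 0.06 over complex IV and 0.03 over complex V, beside 0.00 over all tested genes. The 95% interval of the fold change lay within 1.5-fold in either direction for 70 of the 75 structural subunits, and within 2-fold for all 75. By complex, the intervals within 1.5-fold numbered 33 of 36 for complex I, 4 of 4 for complex II, 8 of 8 for complex III, 11 of 11 for complex IV and 14 of 16 for complex V. A difference of 2-fold or more thus lay outside the interval of each structural subunit. Over all 88 genes, 76 intervals lay within 1.5-fold and 84 within 2-fold, and of the 3 tissue isoforms 0 lay within 2-fold. The largest fitted changes were those of Cox6b2 (0.58 ± 0.40), Atp5s (0.56 ± 0.39) and Cox7a1 (-0.44 ± 0.49), whose means were under 10 CPM.

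**Figure D1:**
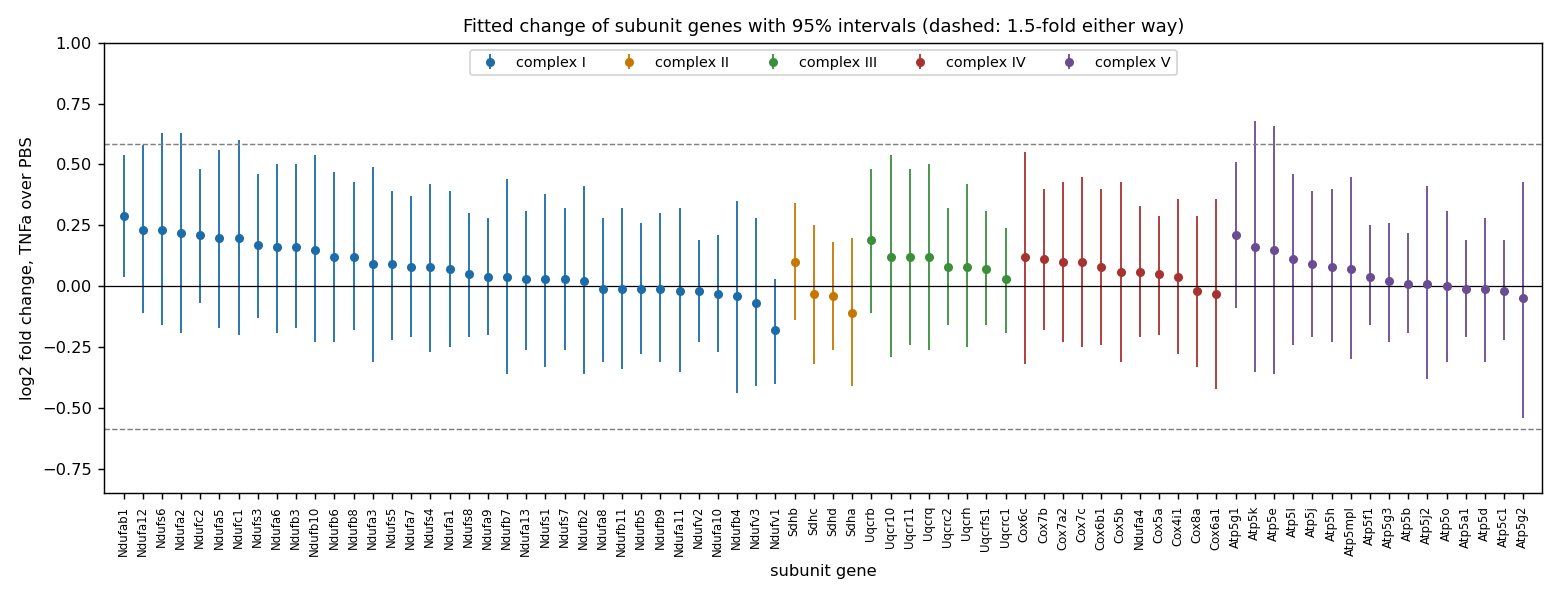
Each point is 1 subunit gene (74 of the 75 are drawn), with its log2 fold change (TNFa over PBS) and 95% interval on the vertical axis, grouped and coloured by complex; dashed lines mark 1.5-fold. Each interval drawn includes 0 except that of Ndufab1, which runs between 0.04 and 0.54.

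The 7 nuclear core subunits of complex I carry its redox centres, and Ndufv2 was among the steadiest genes of the set. Ndufv1, whose protein binds NADH and the flavin where electrons enter, had 178, 188 and 177 CPM in TNFa libraries 4, 5 and 6, against 214, 208 and 195 CPM in PBS libraries 1, 2 and 3. All 3 TNFa values were below all 3 PBS values, for a log2 fold change of -0.18 ± 0.10 (SE), but the gene did not pass (adjusted p = 0.68). Ndufv1 lies on chromosome 19 (mm10, 4007497 to 4012806, minus strand) and was the only one of the 88 (1.14%) with lower TNFa values in every library; 8.35% of all tested genes were separated in that direction. Its partner Ndufv2, which carries an iron-sulphur cluster of the same module, had 186, 184 and 200 CPM with TNFa and 193, 196 and 189 CPM with PBS. The groups overlapped, and the SD of its log2 values over all 6 libraries was 0.05, as low as that of any member.

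Ndufs1, the largest subunit of the electron input module, had 172, 117 and 188 CPM with TNFa and 155, 156 and 158 CPM with PBS. The PBS libraries were nearly equal, TNFa replicate 5 was the lowest of the 6 and the other TNFa libraries were the highest, so that its log2 fold change was 0.03 ± 0.16 with all libraries and 0.20 without replicate 5. Ndufs7, which lines the ubiquinone site, averaged 143 ± 17.6 CPM with TNFa and 140 ± 15.2 CPM with PBS. Ndufs3, a subunit of the arm that leads to that site, averaged 137 ± 19.5 CPM with TNFa and 122 ± 13.1 CPM with PBS (0.17 ± 0.13, adjusted p = 0.79; 0.04 without replicate 5), and Ndufs8, which carries further iron-sulphur clusters, averaged 139 ± 16.5 CPM with TNFa and 135 ± 4.39 CPM with PBS. Over the 7 core subunits the median log2 fold change was 0.03, with 4 means higher and 3 lower, and without replicate 5 it was -0.03, with 2 higher and 5 lower.

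The 29 accessory subunits of complex I surround this core and are needed to assemble or stabilise it. Of these, 21 had higher and 8 had lower means with TNFa, with a median log2 fold change of 0.08. Without TNFa replicate 5, 4 had higher and 25 had lower means (median -0.08). Ndufab1, the mitochondrial acyl carrier protein, which also serves fatty acid and lipoic acid synthesis, had 206, 224 and 187 CPM with TNFa, against 182, 163 and 160 CPM with PBS. The groups did not overlap, and the fold change was 1.22 (95% interval 1.03 to 1.45; log2 0.29 ± 0.11), with an adjusted p of 0.51. Ndufab1 (chromosome 7, 122085403 to 122101886, minus strand) overlaps in its exons with the annotated gene Gm44986 on the opposite strand. Counts of a near-identical copy of Ndufab1, Gm4459, amounted to 6.24% of its own. With that copy added, its log2 fold change was 0.23 ± 0.10 (adjusted p = 0.60).

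Other accessory subunits overlapped between the groups. Ndufa2 averaged 203 ± 62.5 CPM with TNFa and 175 ± 6.63 CPM with PBS (log2 fold change 0.22 ± 0.18). That TNFa mean rests on replicate 5, at 275 CPM beside 160 and 175 in replicates 4 and 6, and without it the log2 fold change was -0.06. Ndufa12, in the arm that faces the matrix, showed the same arrangement, with 153, 207 and 137 CPM in TNFa libraries 4, 5 and 6 against 153, 136 and 134 CPM in PBS libraries 1, 2 and 3. Ndufs6, which binds zinc, averaged 145 ± 40.9 CPM with TNFa and 123 ± 9.85 CPM with PBS. Ndufb6, a subunit of the membrane arm, averaged 169 ± 40.1 CPM with TNFa and 155 ± 9.91 CPM with PBS, and Ndufa1, a small membrane subunit that is needed for assembly, 171 ± 30.6 CPM with TNFa and 163 ± 17.5 CPM with PBS. In each of these genes TNFa replicate 5 was the highest of the 6 libraries. Without it the log2 fold change was 0.04 for Ndufa12, -0.02 for Ndufs6 and -0.09 for both Ndufb6 and Ndufa1.

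All 8 assembly factors of complex I had higher means with TNFa, and 0 passed the test (median log2 fold change 0.12). This count rests on TNFa replicate 5, which was the highest library for 6 of the 8: without it 3 means were higher and 5 lower, with a median of -0.01. Ndufaf1, part of the complex that builds the membrane arm, had 34.8, 32.1 and 34.5 CPM with TNFa, against 28.9, 26.5 and 22.2 CPM with PBS. Every TNFa library was above every PBS library, and replicate 5 was the lowest of the 3. The log2 fold change of Ndufaf1 was 0.39 ± 0.15 (1.31-fold, 95% interval 1.03 to 1.66; adjusted p = 0.53) with all libraries and 0.42 ± 0.16 (adjusted p = 0.36) without replicate 5. Ndufaf1 and Ndufab1 were the 2 of 88 members (2.27%) with higher TNFa values in every library, where 6.85% of all tested genes were so separated. Ndufaf5, which hydroxylates Ndufs7, averaged 23.6 ± 5.80 CPM with TNFa and 18.4 ± 1.20 CPM with PBS (0.36 ± 0.20, or 0.19 without replicate 5), and the remaining 6 factors had log2 fold changes of 0.08 to 0.14.

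Complex II joins the chain to the citric acid cycle, and its 4 genes showed little difference in either direction. Sdhb, the iron-sulphur subunit, had 468, 535 and 460 CPM with TNFa and 491, 455 and 420 CPM with PBS, a log2 fold change of 0.10 ± 0.11. Sdha, the flavoprotein that oxidises succinate, had 316, 239 and 331 CPM with TNFa and 305, 301 and 346 CPM with PBS (-0.11 ± 0.13). The groups overlapped for both genes, and TNFa replicate 5 was the highest library for Sdhb and the lowest for Sdha. The membrane anchors Sdhc and Sdhd averaged 113 ± 1.98 and 278 ± 11.7 CPM with TNFa, against 116 ± 18.0 and 285 ± 18.3 CPM with PBS. Summed over the 4 genes, complex II stood at 1173 ± 5.72 CPM with TNFa and 1174 ± 52.6 CPM with PBS.

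All 8 nuclear subunits of complex III named here had higher means with TNFa, by log2 fold changes of 0.03 to 0.19, and 0 passed the test. Uqcrb, known as the ubiquinone-binding protein, had 235, 268 and 191 CPM with TNFa and 214, 203 and 193 CPM with PBS (0.19 ± 0.13, adjusted p = 0.76; 0.06 without TNFa replicate 5). The groups overlapped, since TNFa replicate 6 was the lowest of the 6 libraries. The core proteins Uqcrc1 and Uqcrc2 averaged 432 ± 5.62 and 219 ± 14.6 CPM with TNFa, against 425 ± 34.7 and 206 ± 16.4 CPM with PBS, and the Rieske iron-sulphur protein Uqcrfs1 averaged 238 ± 21.1 CPM with TNFa and 226 ± 6.94 CPM with PBS. Of the small subunits, Uqcr10 had 168, 282 and 178 CPM with TNFa and 194, 208 and 174 CPM with PBS, and Uqcr11 averaged 183 ± 43.0 CPM with TNFa and 169 ± 16.0 CPM with PBS. Without replicate 5, 4 of the 8 means were higher and 4 lower, and the median over the complex was -0.03 in place of 0.10.

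The 11 nuclear subunits of complex IV followed a single library, and 0 passed the test. Cox6b1, which faces the side where cytochrome c docks, had 368, 541 and 398 CPM with TNFa and 434, 403 and 396 CPM with PBS. Cox4i1, the largest nuclear subunit, had 479, 651 and 465 CPM with TNFa and 561, 527 and 459 CPM with PBS. In both genes replicate 5 was the highest library, and the groups overlapped. This held for 11 of the 11 subunits, and with replicate 5 left out all 11 means were lower with TNFa (median log2 fold change -0.11, range -0.26 to -0.03), in place of 9 higher and 2 lower (median 0.06). Cox6a1, at 418 ± 104 CPM with TNFa and 426 ± 58.3 CPM with PBS, had a log2 fold change of -0.03 ± 0.17 with all libraries and -0.26 without replicate 5. Cox8a, a small membrane subunit, averaged 424 ± 68.7 CPM with TNFa and 430 ± 52.3 CPM with PBS, and Cox7a2 450 ± 105 CPM with TNFa and 420 ± 13.9 CPM with PBS.

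The complex IV subunits with a tissue isoform among the members were represented almost wholly by the widely expressed form. Cox4i2, Cox7b2, Cox8b, Cox8c and Ndufa4l2 were not among the members, which came from a count table with no gene total under 10.0 counts. Per kilobase of exon, Cox6a1 stood at 595 ± 149 CPM with TNFa and 607 ± 83.0 with PBS, while Cox6a2, the heart and muscle form, stood at 2.43 ± 0.710 with TNFa and 2.96 ± 1.40 with PBS. Cox6b1 stood at 616 ± 131 CPM per kilobase with TNFa and 581 ± 28.7 with PBS, and Cox6b2, the testis form, at 2.38 ± 0.461 with TNFa and 1.59 ± 0.397 with PBS. Cox7a2 stood at 477 ± 111 CPM per kilobase with TNFa and 445 ± 14.7 with PBS, and Cox7a1, the muscle form, at 3.36 ± 1.73 with TNFa and 4.57 ± 1.48 with PBS. The 3 tissue isoforms and Atp5s were the 4 members whose mean lay under 10 CPM, and their log2 values varied most over the 6 libraries, with SDs of 0.64 for Cox7a1, 0.59 for Atp5s, 0.56 for Cox6a2 and 0.45 for Cox6b2. Cox7a2l, whose protein links complexes III and IV, was at 48.9 ± 4.72 CPM per kilobase with TNFa and 44.6 ± 4.17 with PBS. The remaining 84 members exceeded 10 CPM in every library.

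In CPM, which are not scaled by length, Atp5b and Atp5a1 of the catalytic head of ATP synthase were the most abundant members, and they were also among the least variable. Per length the order depended on the length used. Per kilobase of exon Atp5b stood at 518 ± 37.0 CPM with TNFa and 513 ± 10.5 with PBS, below Cox8a at 686 ± 111 with TNFa and 695 ± 84.6 with PBS. Per kilobase of the longest coding transcript Atp5b stood at 1145 ± 81.8 CPM with TNFa and 1135 ± 23.3 with PBS, above Cox8a at 772 ± 125 with TNFa and 782 ± 95.2 with PBS. Atp5b, the catalytic beta subunit, had 2284, 2012 and 2284 CPM with TNFa and 2191, 2208 and 2124 CPM with PBS (log2 fold change 0.01 ± 0.09; 95% interval of the fold change 0.87 to 1.16). Atp5a1, the alpha subunit, had 1026, 934 and 1015 CPM with TNFa and 1009, 1003 and 980 CPM with PBS, and Atp5c1, the gamma subunit of the central stalk, had 556, 599 and 535 CPM with TNFa and 578, 565 and 566 CPM with PBS. The groups overlapped in each case, and the SD of the log2 values over 6 libraries was 0.05 for Atp5a1 and Atp5c1 and 0.07 for Atp5b. The small subunits were less even. Atp5k, the membrane subunit e, averaged 128 ± 49.3 CPM with TNFa, with 185 CPM in replicate 5, and had 117, 128 and 98.3 CPM with PBS, and Atp5e, the epsilon subunit, had 158, 316 and 176 CPM with TNFa and 208, 202 and 175 CPM with PBS. TNFa replicate 5 was above the other 5 libraries in both, and the SD of their log2 values was 0.35. Their log2 fold changes were 0.16 and 0.15 with all libraries and -0.20 and -0.22 without it. Over the 16 subunits of complex V, 11 means were higher and 5 lower with all libraries, and 4 higher and 12 lower without it.

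Subunit c, which forms the rotating ring in the membrane, is encoded by 3 genes whose mature proteins are identical. Atp5g3 had 585, 740 and 604 CPM with TNFa and 646, 619 and 643 CPM with PBS, Atp5g1 had 235, 309 and 233 CPM with TNFa and 236, 233 and 204 CPM with PBS, and Atp5g2 had 19.2, 22.2 and 20.9 CPM with TNFa and 24.1, 25.7 and 14.9 CPM with PBS. Per kilobase of exon Atp5g3 stood highest, at 295 ± 38.7 CPM with TNFa and 292 ± 6.81 with PBS, followed by Atp5g1 at 52.7 ± 8.81 with TNFa and 45.6 ± 3.59 with PBS, and by Atp5g2 at 12.4 ± 0.907 with TNFa and 12.9 ± 3.46 with PBS. The levels of Atp5g1 and Atp5g2 depend on how the counting shared reads with processed pseudogenes. The coding sequence of Atp5g2 (438 bases) is found without a difference in Gm10175 on chromosome 7, to which the table gave 169, 237 and 185 CPM with TNFa and 192, 181 and 176 CPM with PBS, or 897% of the counts of Atp5g2 itself. The coding sequence of Atp5g1 (408 bases) differs from Gm10039 at 1 position, G385A, counted from the first coding base with the base of Atp5g1 first, and the counts of Gm10039 were 50.1% of those of Atp5g1.

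Stretches of these coding sequences, taken from GENCODE M21 (GRCm38) and all on the minus strand, show why the table's division between gene and copy is uncertain. Capitals mark the base that differs, and the pair of Atp5g2 and Gm10175 has none. The stretches run over coding bases 349 to 408 for Atp5g1 and Gm10039 and over 1 to 60 for Atp5g2 and Gm10175.
Atp5g1: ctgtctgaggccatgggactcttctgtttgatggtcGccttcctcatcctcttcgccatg
Gm10039: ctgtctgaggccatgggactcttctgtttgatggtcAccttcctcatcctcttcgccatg
Atp5g2: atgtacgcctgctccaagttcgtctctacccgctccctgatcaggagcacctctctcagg
Gm10175: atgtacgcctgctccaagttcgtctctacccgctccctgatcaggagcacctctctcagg

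With the copies added, Atp5g2 stood at 218 ± 37.1 CPM with TNFa and 205 ± 12.8 CPM with PBS, and its log2 fold change was 0.09 ± 0.13 in place of -0.05. Atp5g1 with its copy stood at 394 ± 60.1 CPM with TNFa and 330 ± 21.8 CPM with PBS (0.26 ± 0.12, adjusted p = 0.64). Outside complex V, Ndufb4 shares all 387 coding bases with Ndufb4c, whose counts were 166% of its own, and the pair together stood at 85.1 ± 13.5 CPM with TNFa and 83.5 ± 4.95 CPM with PBS. Counts of Gm15920 were 27.0% of those of Ndufa12. Annotated copies with at least 95% identity over at least 80% of the coding sequence existed for 21 of the 88 genes, 11 of which had a copy in the table and 4 of which had copies with over 10% of their counts. Exons of 31 members overlap another gene, 28 of them on the other strand, and whether counting used strand is not given in the sources used here.

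Levels per kilobase of exon differed more between complexes than between treatments. The median over the subunits of complex IV was 281 ± 62.0 CPM per kilobase with TNFa and 262 ± 29.0 with PBS (mean ± SD over 3 libraries of the median gene). Complex III followed with 174 ± 26.9 with TNFa and 163 ± 7.90 with PBS, complex II with 144 ± 2.50 with TNFa and 140 ± 5.68 with PBS, complex V with 136 ± 34.8 with TNFa and 130 ± 9.56 with PBS, and complex I with 92.4 ± 8.04 with TNFa and 89.0 ± 4.54 with PBS. The spans of mean ± SD of complexes II and V overlapped in both groups, and with TNFa so did those of complexes III and V. With the longest coding transcript as the length, complex IV stood at 614 and complex V at 349 CPM per kilobase with TNFa, against 595 and 344 with PBS, and complexes III, II and I followed with 297, 164 and 145 with TNFa and 283, 171 and 139 with PBS. The place of complex V in the order thus depends on the length used. Genes within a complex covered a wide range: in complex I the lowest was Ndufb4 at 16.3 ± 2.79 with TNFa and 16.8 ± 2.33 with PBS, and the highest was Ndufa1, at 409 ± 73.0 with TNFa and 389 ± 41.9 with PBS, in CPM per kilobase of exon.

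**Figure D2:**
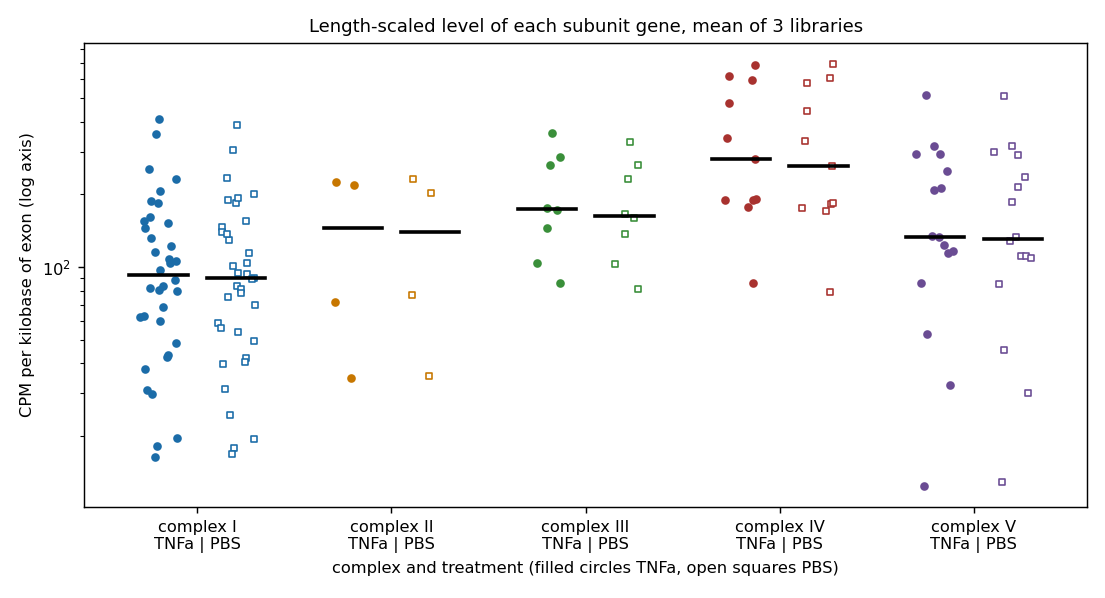
Each symbol is 1 subunit gene, placed at its mean level over 3 libraries in CPM per kilobase of exon (log axis), with TNFa as filled circles left of PBS as open squares; black bars are the median of the genes. Complex IV has the highest and complex I the lowest bar in both groups, and the TNFa and PBS bars of a complex nearly coincide.

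The excess of higher means with TNFa in this set followed a single library. TNFa replicate 5 was the highest of the 6 libraries for 69 of the 88 genes (78.4%), where it was the highest for 26.4% of all tested genes. By complex these were 30 of 36 in complex I, 1 of 4 in complex II, 5 of 8 in complex III, 11 of 11 in complex IV and 13 of 16 in complex V. Set against each gene's mean log2 CPM in PBS, the median subunit of complex I lay at -0.05, 0.35 and -0.06 in TNFa libraries 4, 5 and 6, that of complex III at -0.01, 0.40 and -0.08, that of complex IV at -0.10, 0.36 and -0.14 and that of complex V at -0.09, 0.33 and -0.12. The accessory subunits of complex I lay at -0.06, 0.40 and -0.07. Lower medians in replicate 5 were those of complex II, at -0.01, 0.02 and -0.01, and of the core subunits of complex I, at -0.05, -0.07 and -0.01, whose members went both ways: replicate 5 was the highest library for 3 of the 7 core subunits and the lowest for 2. The difference between these groups of genes was not tested.

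**Figure D3:**
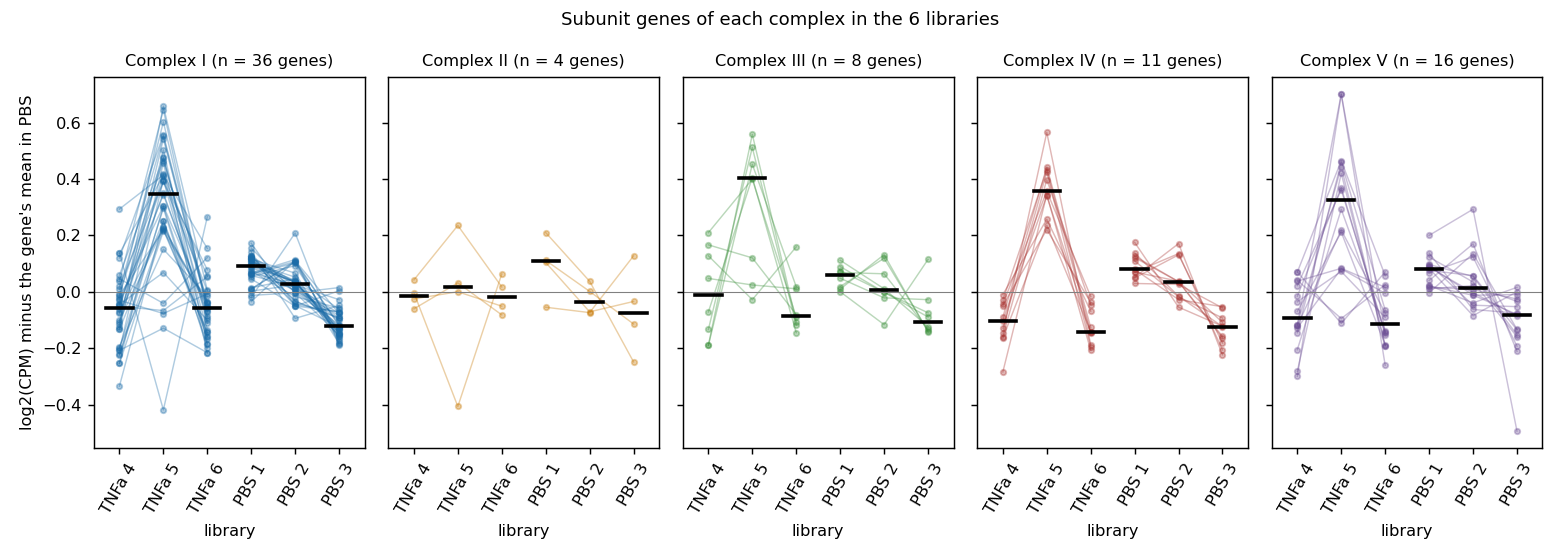
Each line is 1 subunit gene, given as its log2 CPM minus its mean over the 3 PBS libraries, with TNFa libraries 4, 5 and 6 left of PBS libraries 1, 2 and 3; black bars are medians. The bar of TNFa replicate 5 lies at 0.35, 0.40, 0.36 and 0.33 in complexes I, III, IV and V and at 0.02 in complex II.

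Counting directions over the set therefore gave opposite answers with and without this library. With all 6 libraries 65 of the 88 genes had a higher and 23 a lower mean with TNFa (73.9% higher, beside 50.6% of all tested genes), and the median log2 fold change was 0.08. Without TNFa replicate 5, 22 were higher and 66 lower (25.0% higher, beside 49.2% of all tested genes), with medians of -0.07, -0.01, -0.03, -0.11 and -0.10 for complexes I to V. Without it 67 genes passed the test overall (0.406%) and 0 of the 88, and 7 of the 88 (7.95%) had an unadjusted p under 0.05, beside 10.8% of all tested genes. The log2 fold change of Ndufv1 was then -0.22 ± 0.09 (adjusted p = 0.41) and that of Ndufab1 0.22 ± 0.10 (adjusted p = 0.45). The medians of complexes I, III, IV and V thus changed sign. Ndufab1, Ndufaf1 and Ndufv1 kept their direction, but this was set in advance. In these genes the groups did not overlap, so leaving out a single library could not reverse them.

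**Figure D4:**
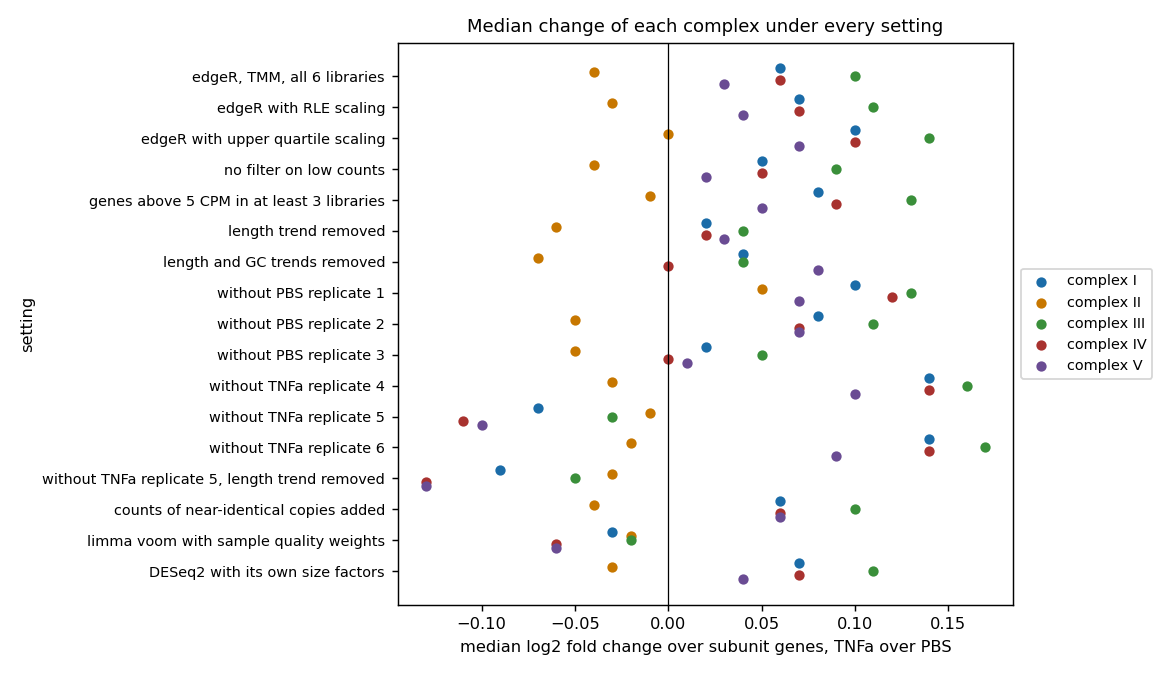
Points give the median log2 fold change (TNFa over PBS) over the subunit genes of each complex, coloured by complex, for each setting named on the vertical axis. The medians of complexes I, III, IV and V lie at or above 0 except in the settings that leave out TNFa replicate 5 or weight libraries by quality, and no median exceeds 0.17 in size.

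The deviation of replicate 5 moved with transcript length, which is short for most subunits. For the 48 members with a longest coding transcript under 1000 bp the median deviation from the mean of the other 5 libraries, on the log2 scale, was 0.44, and for the 23 members of 1500 bp or more it was 0.07. Over all coding genes the same medians were 0.32 (697 genes) and -0.11 (10600 genes). Across the 88 genes, which share the same libraries, Spearman's correlation of the deviation with length was -0.54 in replicate 5, beside 0.44 and 0.50 in TNFa replicates 4 and 6 and -0.04, -0.04 and 0.23 in PBS libraries 1, 2 and 3. Over 12439 coding genes it was 0.09, -0.16 and 0.12 in TNFa libraries 4, 5 and 6 and -0.13, 0.01 and 0.23 in PBS libraries 1, 2 and 3. Replicate 5 is part of the reference of every other library, so its deviation pulls theirs the opposite way. Set against PBS alone, the median of the 88 genes was -0.06, 0.34 and -0.07 in TNFa libraries 4, 5 and 6. The share of counts from cytosolic ribosomal protein genes, which are also short, was 3.21%, 4.64% and 3.19% in TNFa libraries 4, 5 and 6, against 3.27%, 3.26% and 2.93% in PBS libraries 1, 2 and 3. The share of the 88 genes was 1.95%, 2.28% and 1.95% in the TNFa libraries, against 2.02%, 2.04% and 1.92% in the PBS libraries. That of genes of the mitochondrial genome was 0.769%, 1.22% and 0.778% in the TNFa libraries, against 0.783%, 0.592% and 0.944% in the PBS libraries, and was highest in replicate 5. A trend was also removed from each library, on the length of all exons rather than of the longest coding transcript. The medians were then 0.02, -0.06, 0.04, 0.02 and 0.03 for complexes I to V. The fitted change was higher with TNFa for 62 of the 88 genes, beside 65 before the removal. Again 0 of the 88 genes passed, beside 0.109% of all tested genes. The part of RNA quality or library preparation in this pattern was not tested.

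**Figure D5:**
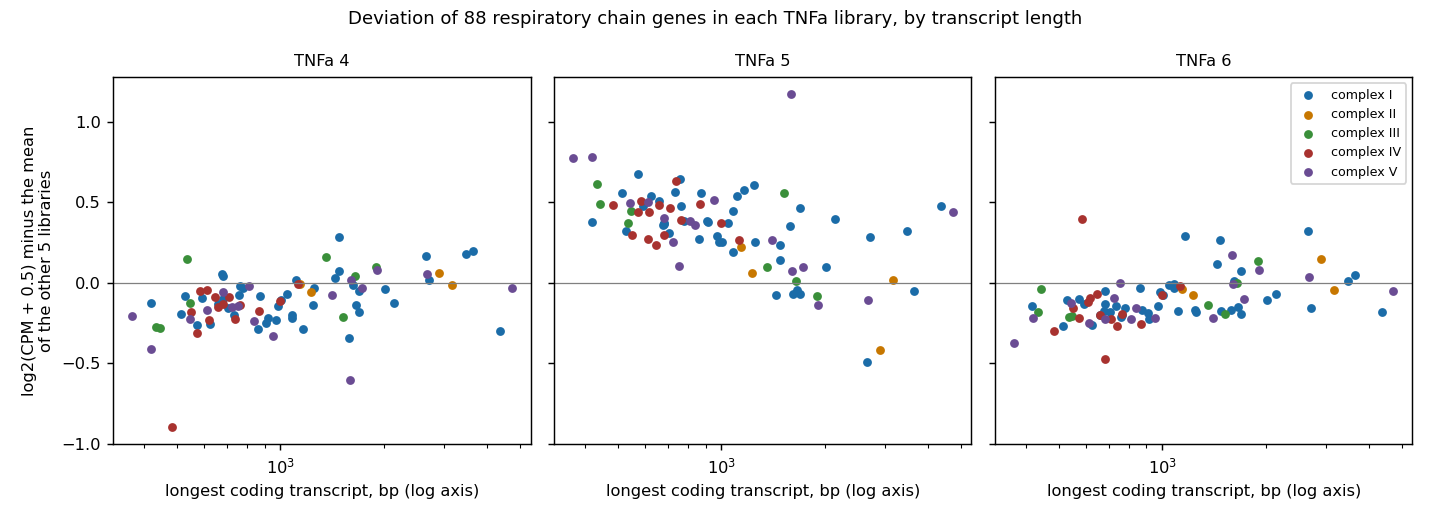
Each point is 1 of the 88 genes, with the length of its longest coding transcript on a log axis and, vertically, its log2(CPM + 0.5) in a TNFa library minus the mean of the other 5 libraries. In TNFa replicate 5 the 48 genes under 1000 bp centre on 0.44 and those of 1500 bp or more on 0.07. Replicates 4 and 6, whose reference includes replicate 5, centre below 0 for short genes (-0.15 and -0.18).

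Promoters of respiratory chain genes are known to bind the factors NRF1, GABP (an ETS protein, also called NRF2) and YY1, so the genes were described by the letters of these sites as well. RefSeq promoter windows of GRCm38.p6, covering 250 bases before to 50 after a start, were matched for 72 of the 88 genes. The NRF1 letters GCGCATGCG, on either strand, stood in a window of 10 of the 72 genes (13.9%), beside 4.20% of 9799 tested coding genes and 1.95% of all 27025 genes with a window. The ETS letters CCGGAAG, on either strand, stood in 18 genes (25.0%, beside 20.4% and 9.93%), and the YY1 letters AAGATGGCG, on either strand, in 8 genes (11.1%, beside 3.59% and 1.64%). At least 1 of the 3 stood in 30 of the 72 genes (41.7%, beside 26.2% and 12.7%); matches were counted per motif whether or not they overlapped, and a gene with several windows counted if any of them matched.

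Ndufaf1, Ndufab1 and Ndufv1 were the members whose groups did not overlap, though they did not pass the test. Of these genes Ndufaf1 held the ETS letters, and Ndufab1 and Ndufv1 held none of the 3 motifs in these windows. Cox6a1 and Atp5j show how the motifs combine, the first with NRF1 and ETS letters and the other with YY1 and ETS letters, and Atp5j is shown because Gabpa, which encodes a GABP subunit, overlaps one of its exons. The Atp5j window printed is the second of 2 and lies within both genes, and the other, chr16:84835576-84835875 at the outer end of Atp5j, held none of the 3 motifs. Windows are chr2:119662785-119663084 for Ndufaf1, chr5:115348909-115349208 for Cox6a1 and chr16:84834927-84835226 for Atp5j, all read on the minus strand, with motif letters in capitals. In Cox6a1 the NRF1 letters overlap on both strands, since the site reads the same in either direction, and the ETS letters are on the opposite strand to the gene.
Ndufaf1: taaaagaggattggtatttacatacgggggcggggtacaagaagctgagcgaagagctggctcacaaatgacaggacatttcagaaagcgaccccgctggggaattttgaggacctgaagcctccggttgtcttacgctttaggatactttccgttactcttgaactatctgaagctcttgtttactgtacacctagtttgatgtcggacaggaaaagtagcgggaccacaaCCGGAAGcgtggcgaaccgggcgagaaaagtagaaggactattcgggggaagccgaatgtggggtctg
Cox6a1: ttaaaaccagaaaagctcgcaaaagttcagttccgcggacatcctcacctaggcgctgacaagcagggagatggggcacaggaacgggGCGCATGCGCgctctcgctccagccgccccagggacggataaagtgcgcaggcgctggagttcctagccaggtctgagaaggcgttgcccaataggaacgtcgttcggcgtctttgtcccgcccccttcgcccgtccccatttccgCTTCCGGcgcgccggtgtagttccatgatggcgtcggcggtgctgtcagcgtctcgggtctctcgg
Atp5j: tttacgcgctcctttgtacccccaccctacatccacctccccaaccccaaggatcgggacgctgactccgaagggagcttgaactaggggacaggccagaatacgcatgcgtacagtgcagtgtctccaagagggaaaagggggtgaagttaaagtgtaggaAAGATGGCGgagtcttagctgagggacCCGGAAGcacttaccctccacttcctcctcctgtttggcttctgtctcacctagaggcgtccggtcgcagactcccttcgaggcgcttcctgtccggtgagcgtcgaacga

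The genes of these factors did not pass the test either. Nrf1 averaged 38.5 ± 3.95 CPM with TNFa and 41.8 ± 3.68 CPM with PBS, Gabpa 56.4 ± 7.17 CPM with TNFa and 56.6 ± 9.32 with PBS, and Yy1 28.8 ± 9.25 CPM with TNFa and 28.2 ± 9.21 with PBS. Among 18 tested regulators of mitochondrial biogenesis 7 means were higher and 11 lower with TNFa (median log2 fold change -0.04), and 0 passed. Polrmt, the RNA polymerase of mitochondria, had 40.6, 26.5 and 42.2 CPM with TNFa and 48.8, 45.5 and 44.6 CPM with PBS (-0.34 ± 0.18, adjusted p = 0.68; -0.16 without replicate 5). Its groups did not overlap, and replicate 5 was the lowest library.

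The subunits encoded in mitochondrial DNA, which join the nuclear subunits in complexes I, III, IV and V, varied widely within both groups. Their 13 genes summed to 4935, 5993 and 5184 CPM in TNFa libraries 4, 5 and 6, against 4878, 3975 and 6118 CPM in PBS libraries 1, 2 and 3, and the lowest and the highest of the 6 values were both PBS libraries. Of the 13 means, 10 were higher and 3 lower with TNFa, the median log2 fold change was 0.17 (-0.02 without replicate 5), and 0 passed. The gene with the lowest p was mt-Nd4, a proton-pumping subunit of complex I, at 290 ± 90.9 CPM with TNFa and 227 ± 41.2 CPM with PBS (0.36 ± 0.21, adjusted p = 0.71; 0.07 without replicate 5). Its values in replicates 4, 5 and 6 were 244, 395 and 232 CPM, so replicate 5 was again the highest.

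Genes that feed or build the chain gave no passing gene in any list. Of 42 further assembly factors 32 means were higher and 10 lower with TNFa (median 0.08, or -0.01 without replicate 5), and Sdhaf1, which helps insert the iron-sulphur clusters of complex II, had 22.1, 22.5 and 21.9 CPM with TNFa, against 17.9, 17.0 and 17.2 CPM with PBS. The SDs were 0.281 CPM with TNFa and 0.446 CPM with PBS, the groups did not overlap, and the log2 fold change was 0.35 ± 0.15 (adjusted p = 0.58). The 17 citric acid cycle and pyruvate dehydrogenase genes were divided into 8 higher and 9 lower (median 0.00), and the 13 ubiquinone synthesis genes into 10 higher and 3 lower (median 0.05), with Coq10b at 30.4 ± 3.41 CPM with TNFa and 23.4 ± 3.68 with PBS (0.38 ± 0.17, adjusted p = 0.62). Cytochrome c (Cycs), the carrier between complexes III and IV, averaged 282 ± 39.2 CPM with TNFa and 251 ± 25.3 CPM with PBS, and cytochrome c1 (Cyc1), the haem subunit of complex III from which it takes electrons, 274 ± 4.07 CPM with TNFa and 260 ± 22.2 CPM with PBS.

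Among 9 carriers and channels, 5 means were higher and 4 lower with TNFa (median log2 fold change 0.00). Ucp2, a carrier of the inner membrane that belongs to the uncoupling protein family, had the highest CPM of them, not scaled by length. Its values were 1246, 1134 and 1262 CPM with TNFa, against 1557, 1590 and 1385 CPM with PBS. All 3 TNFa libraries were below all 3 PBS libraries, for a log2 fold change of -0.32 ± 0.10 with all libraries (adjusted p = 0.39) and -0.27 without replicate 5. Mpc1, a subunit of the pyruvate carrier, averaged 194 ± 21.4 CPM with TNFa and 160 ± 17.8 CPM with PBS (0.28 ± 0.12, adjusted p = 0.60), and its groups overlapped.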

How the data were processed

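RNA of sorted lung ILC2s was sequenced in 6 libraries, 3 with TNFa and 3 with PBS. Per the file headers, the authors quantified genes with Partek's expectation-maximization method; the submitters' processing notes add mm10 and CASAVA 1.8.2. The deposited values are expected counts, 41.7% of them whole within 0.01, with no scaling; 0 other columns of values were present. Depth was 25089415 to 32487004 counts per library, so replicate spread limits precision more than counting error.

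After rounding, edgeR 4.0.16 (R 4.3.3) was used with filterByExpr (minimum count 10, minimum total 15), TMM scaling, the robust quasi-likelihood F-test and Benjamini-Hochberg adjustment over all tested genes (threshold 0.05). Alternatives used DESeq2 1.42.0, limma 3.58.1 (voom with sample quality weights), other scalings and filters, and each library left out. Further fits removed spline trends on the length of all exons, alone or with GC (5 degrees of freedom). The test was checked on simulated data. Lengths came from GENCODE M21, copies from blastn 2.17.0, and promoter windows from RefSeq. Coordinates are 1-based.

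Members and gene lists were chosen with earlier results of these data known. Genes were named by rule: in each complex the 3 lowest unadjusted p and the 3 highest levels per length, all complex II and core complex I genes, further catalytic subunits and paralog groups, and up to 3 genes of each other list. Ndufa12, Ndufs6, Ndufaf5, Atp5e, Ndufb4, Atp5j, Thy1, Il17rb, Areg, Epcam, Scgb1a1, Nrf1, Gabpa and Yy1 lie outside this rule and were chosen after their values were seen. A gene that the rule names is not reported here.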

Additional observations from a re-analysis of the deposited data

How the results depend on the processing

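Under the 16 alternative fits 0 of the 88 respiratory chain genes passed the test (85 of them were tested with the filter at 5 CPM); the lowest adjusted p among them lay between 0.25 and 0.97. The number of genes that passed overall moved more: 16 with all libraries, 3 without a filter on low counts, 25 with genes above 5 CPM in at least 3 libraries, 78 with voom and sample quality weights, 218 with DESeq2, 32 at an adjusted p under 0.10, and 1 to 67 with 1 library left out. With TNFa replicate 5 left out and the length trend removed it was 43, and with copies added it stayed at 16; both settings were chosen after seeing the data. With replicate 5 out and the trend removed, complex III had a median of -0.05 in place of 0.10. Leaving out 1 library gave complex II medians of -0.05 to 0.05. Levels per kilobase over all 6 libraries, with the longest coding transcript in place of all exons, were 142 for complex I, 167 for II, 290 for III, 605 for IV and 346 for V. The sign of the fitted change differed for 48 of the 88 genes without replicate 5 and the length trend, 47 without replicate 5 alone and 39 with quality weights. With length and GC trends removed from all 6 libraries it differed for 31. In that fit 54 genes were higher and 34 lower (median log2 fold change 0.04), and Ndufv1 stood at -0.06 in place of -0.18. No paired analysis was possible because the groups share no replicate numbers. Precision is limited by 3 libraries per group, 1 of which stands apart, and by reads shared with copies for Atp5g1, Atp5g2, Ndufb4 and Ndufa12.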
